A study of Homo sapiens with 2 samples.

Results

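The genes described here encode core proteins of the spliceosome, the machine that removes introns from pre-mRNA. They were taken from a list of 59 gene symbols, and their members in the data were every splicing event filed under 1 of those symbols. The events came from polyadenylated RNA of HEK293T, an established cell line of embryonic kidney origin. The series held 2 libraries, 1 from untreated control cells and 1 from cells given amiloride, a potassium-sparing diuretic, at 300 µg/mL for 6 h. Of 159490 events under 12254 symbols, 934 events (0.586%) belonged to 57 of the 59 genes. The columns of counts and inclusion levels were numbered by library without naming a treatment and could not be matched to either library, and the p-values and level differences were the authors' own comparison. None of these were used, so the account below covers which events were listed over both libraries together and how those events are built, and gives no level, no depth and no effect of amiloride. It rests on 1 library per treatment, with no replicate, and no test was run.

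Splicing begins when the U1 small nuclear ribonucleoprotein (snRNP) pairs with the 5' splice site (5'SS), while SF1 and the U2AF proteins recognize the branch point and the 3' splice site (3'SS). The U2 snRNP then takes the place of SF1 at the branch point. The U4/U6.U5 tri-snRNP joins, U1 and U4 leave, and the PRPF19 complex stabilizes the catalytic center. A ring of Sm proteins holds the RNA of the U1, U2, U4 and U5 particles. The transcripts of these genes are themselves spliced by the machine that their proteins form.

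A few sequences show the kinds of choice that were listed. All are from GRCh37, the build of the deposited coordinates, and read 5' to 3' on the strand of the gene. The first sequences are a pair of exons in U2AF1, which encodes the small U2AF subunit that contacts the AG at the end of the intron. Its canonical exon 3 (chr21:44520563-44520629, minus strand) and the exon that can replace it (chr21:44521476-44521542, minus strand) are both 67 bases long. Capitals mark the 23 positions at which they differ.
U2AF1 exon 3: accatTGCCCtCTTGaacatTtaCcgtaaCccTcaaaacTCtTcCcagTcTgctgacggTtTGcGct
U2AF1 alternative exon: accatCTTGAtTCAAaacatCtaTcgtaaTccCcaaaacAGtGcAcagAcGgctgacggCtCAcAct

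The next set shows splice sites that lie close together inside coding sequence, with the competing dinucleotides in capitals. In PRPF4 and PRPF40B the first AG was followed at once by the bases CAG, so the choice adds or removes these 3 bases. In PPIL2 and SF1 the sites lay 4 bases apart, and in USP39 20 bases apart, which changes the frame. In SRRM1, U2AF2, SNRNP70, PLRG1 and EFTUD2 the distance was a multiple of 3.
PRPF4 exon 2, 3'SS (chr9:116038810-116038833, plus strand): agatctttgatttAGcAGgcaacc
PRPF40B exon 22, 3'SS (chr12:50036695-50036718, plus strand): ttcctctgcctctAGcAGactgaa
PPIL2 exon 20, 3'SS (chr22:22049668-22049692, plus strand): ttcttctcttcccAGgaAGcgagca
USP39 exon 4, 3'SS (chr2:85850734-85850774, plus strand): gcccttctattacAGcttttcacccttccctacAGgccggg
SNRNP70 exon 10, 3'SS (chr19:49611037-49611084, plus strand): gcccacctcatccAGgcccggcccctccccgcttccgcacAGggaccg
EFTUD2 exon 6, 3'SS (chr17:42960491-42960541, minus strand): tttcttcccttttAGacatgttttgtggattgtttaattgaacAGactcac
SF1 exon 10, 5'SS (chr11:64535031-64535051, minus strand): ctccaatggGTaaGTaagtgt
SRRM1 exon 9, 5'SS (chr1:24981606-24981628, plus strand): gaacttcagGTaaagGTaaaaat
U2AF2 exon 10, 5'SS (chr19:56180527-56180555, plus strand): gccacgctgGTgagccccccgGCacgtca
PLRG1 exon 4, 5'SS (chr4:155468155-155468198, minus strand): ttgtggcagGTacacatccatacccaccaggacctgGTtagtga

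The last set is 2 short coding exons, printed with the intron's final AG and first GT in capitals. The SRRM1 exon is not part of the canonical transcript, the reference transcript that Ensembl chose for each gene, and its length of 42 bases is a multiple of 3. The SNRPG exon is canonical and was the shortest exon of the whole list.
SRRM1 exon in intron 12 (chr1:24989674-24989715, plus strand): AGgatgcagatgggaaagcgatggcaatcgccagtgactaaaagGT
SNRPG exon 2 (chr2:70516482-70516504, minus strand): AGatttatggacaagaagttatcatGT

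Skipped exons made up most of the list. There were 671 skipped-exon events in 57 genes, 236 events of mutually exclusive exons in 45 genes, 14 alternative 3'SS events in 10 genes, 7 alternative 5'SS events in 6 genes and 6 retained introns in 6 genes. Skipped exons were 71.8% of the members' events and 71.1% of all events. Alternative 5'SS events were 0.7% of the members' events and 1.6% of all events, alternative 3'SS events 1.5% and 1.8%, and retained introns 0.6% and 0.4%. The members' numbers of these last types are small. SF3B4 and SNRPN were the 2 genes with no event of any type. SF3B4 is a subunit of the U2 snRNP's SF3b complex, and SNRPN encodes SmN, which stands in for SmB in neurons.

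**Figure D1:**
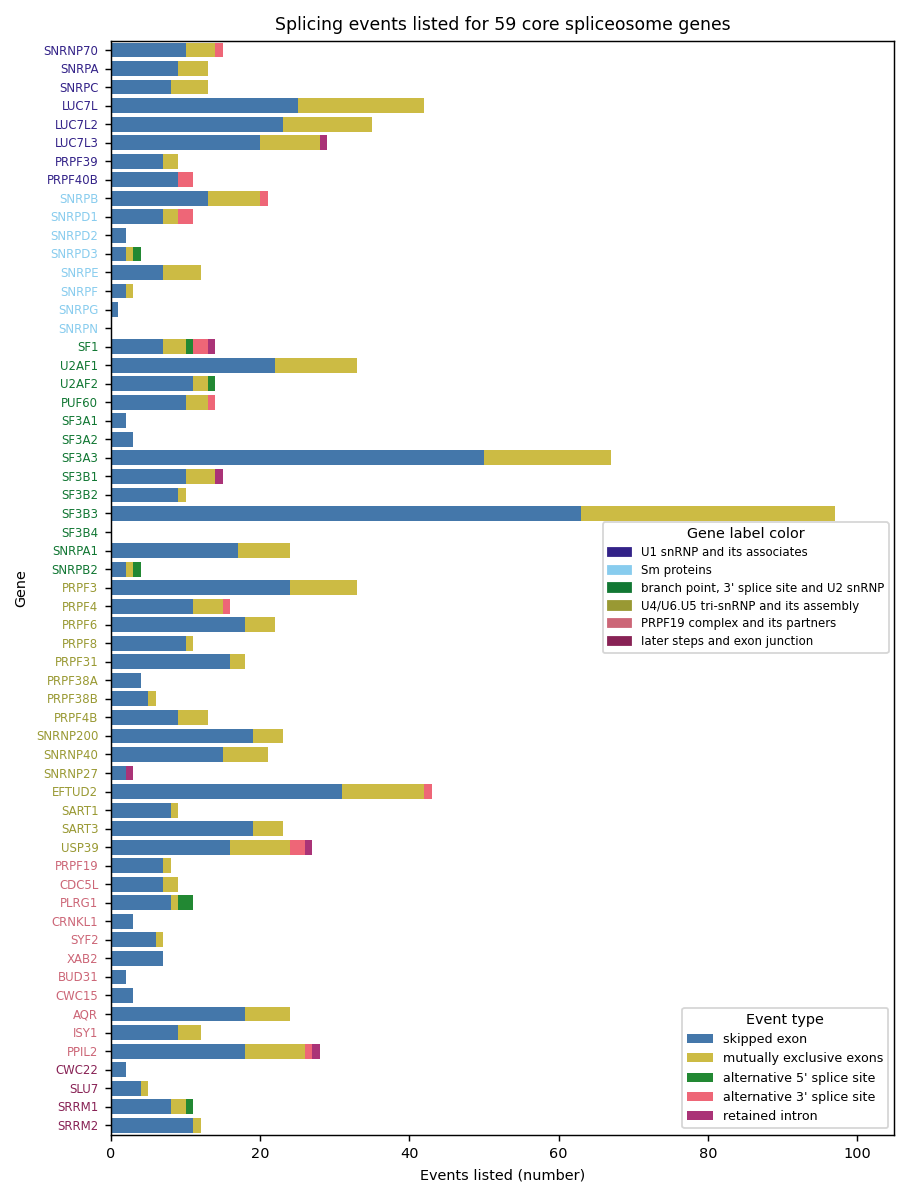
Events listed for each of the 59 genes (horizontal axis, number of events), stacked by event type; label colors give the group of the gene. SF3B3 and SF3A3 have the longest bars, at 97 and 67 events, and SF3B4 and SNRPN have none.

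The 671 skipped-exon events named 391 distinct exons, since an exon can be listed with several pairs of neighbors. Of these, 376 (96.2%) were exons of the canonical transcript, against 92.8% over all genes. The other 15 comprised 7 that lie inside a canonical intron, among them those of LUC7L2 (2 exons), PRPF38B, SNRPD2, SRRM1 and U2AF1, and 8 versions of a canonical exon with another boundary, in CWC15 (118 bases), PLRG1 (27), PUF60 (84), SF1 (205), SNRPD1 (69), SNRPE (41), U2AF2 (87) and USP39 (157). The genes with the most distinct skipped exons were SF3B3 with 22, EFTUD2 with 17, AQR with 16 and SF3A3 with 15, followed by PRPF6, SNRNP200 and PPIL2 with 14 each. Because long genes offer more exons, the listed exons were also counted as a share of each gene's internal canonical exons. Over the 59 genes, including the 2 with no event, 376 of 712 internal exons were listed (52.8%), with a median of 58.3% per gene. Over 17076 protein-coding genes, with or without an event, 37.4% were listed and the median was 37.5%. Over the other 10753 protein-coding genes with an event, 48.5% were listed and the median was 57.1%, with quartiles of 33.3% and 80.0%. In 11 members every internal exon was listed: SNRPA, SNRPC, LUC7L, LUC7L2, SNRPD1, SNRPD2, SNRPD3, SNRPF, U2AF1, SF3A3 and SNRPA1. Every internal exon was also listed in 1679 of the 10753 other genes. The lowest shares above 0 were in CWC22 (2 of 18 exons, 11.1%), SF3A1 (2 of 14, 14.3%) and PRPF8 (8 of 41, 19.5%). How the share moves with a gene's expression was not tested.

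**Figure D2:**
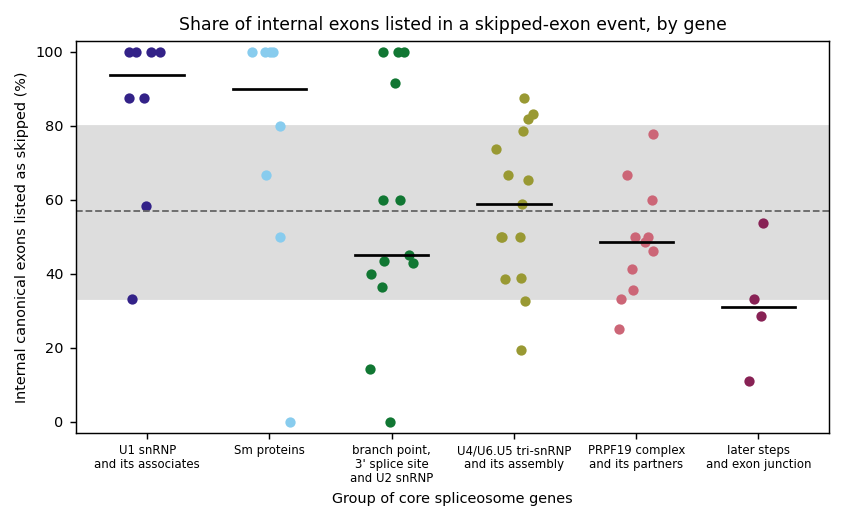
Share of internal canonical exons listed as skipped (vertical axis, percent) for each gene (points), by group; black bars are group medians, and the dashed line and gray band are the median (57.1%) and quartiles of other protein-coding genes with an event. Group medians run from 93.8% for U1 proteins to 31.0% for the later steps.

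The U1 snRNP proteins and their associates had the highest median share of internal exons listed, 93.8% over 8 genes. This group had 167 events and 55 distinct skipped exons. SNRNP70 encodes the U1-70K protein, and 7 of its 8 internal exons were listed; its exon 2 carries the start codon. SNRPA encodes U1-A, and SNRPC encodes U1-C, which contacts the 5'SS duplex; all 4 internal exons of each were listed. LUC7L, LUC7L2 and LUC7L3 are human relatives of the yeast U1 protein Luc7, with 42, 35 and 29 events. In LUC7L and in LUC7L2 alike, leaving out a listed canonical exon kept the frame for 6 of 8 exons, and the 2 exceptions were exons 2 and 7 in both genes. These 2 genes are paralogs with the same number of exons. LUC7L2 also had 2 exons of 77 and 71 bases inside intron 1, each of which gives a premature stop when added. A premature stop here is a stop codon more than 50 bases upstream of the last exon junction, the position that commonly marks an mRNA for nonsense-mediated decay. LUC7L2 shares a listed exon with a read-through symbol, so its events cannot all be assigned to it alone. PRPF39 and PRPF40B, relatives of yeast U1 proteins, had 9 and 11 events, and 8 of the 24 internal exons of PRPF40B were listed (33.3%).

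For the Sm proteins, 14 of 25 internal exons were listed, with a median share of 90.0% per gene. SNRPN, which had no event, holds 8 of the 25. Rings of 7 Sm proteins carry the snRNAs, and 7 of the 8 genes had at least 1 event. SNRPB, which encodes SmB and SmB', had 21 events. Its A3SS event lay at the last exon, where a site 146 bases farther downstream extends the protein by 9 residues; this is the choice known to separate SmB from SmB'. The upstream site scored 11.78 bits and the downstream site 12.10 bits, so the 2 sites were close in this measure. SNRPB and SNRPN encode related proteins, and whether reads from either gene were assigned to the other was not tested. SNRPD1 had an unusual A3SS, 123 bases inside its exon 3, which removes 41 residues and is not in GENCODE 44 (2 events). The site scored 9.02 bits against 11.92 bits for the annotated site. SNRPD3 had an unannotated 5'SS 14 bases upstream of the annotated site in its 5' untranslated region. SNRPD2 had an added exon of 115 bases in intron 1, and SNRPE a 41-base version of its exon 2; each gives a premature stop. The 23-base exon 2 of SNRPG, printed above, was listed once, and leaving it out gives a premature stop that removes 50 of 76 residues.

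The branch point, 3'SS and U2 proteins had the most events of any group, 297 in 12 of 13 genes. Most came from SF3B3, with 63 skipped-exon and 34 mutually exclusive events, and SF3A3, with 50 and 17. SF3B3 is a scaffold of the SF3b complex that binds the branch point, and 22 of its 24 internal exons were listed. SF3A3 is a subunit of SF3a, and all 15 of its internal exons were listed. By contrast SF3A1 and SF3A2, the other SF3a subunits, had 2 and 3 events. SF3B1, the branch point protein that is often mutated in blood cancers, had 10 of 23 internal exons listed, and leaving out 5 of them kept the frame. SF3B1 also had a retained intron of 1476 bases that starts at the same 5'SS as canonical intron 4.

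U2AF1 had 33 events, and all 6 of its internal canonical exons were listed. The 67-base pair printed above was the only pair of equal length in which the sequences were alike: 44 of 67 positions matched (65.7%). Replacing exon 3 with the other exon left the protein at 240 residues and changed 7 of them, between residues 47 and 66. Including both exons gave a premature stop. The other equal-length pairs, of 52 bases in PPIL2 and 109 bases in SNRNP200, were neighboring canonical exons with 30.8% and 21.1% matching positions. U2AF2, the large subunit that binds the polypyrimidine tract, had a 12-base A5SS that removes 4 residues. Its longer, canonical site begins with GC rather than GT, so its score of -12.12 bits reflects weights that were built from GT sites. SF1, the branch point binding protein, had events of 5 types: 7 skipped-exon, 3 mutually exclusive, 2 A3SS, 1 A5SS and 1 retained intron. Its A3SS lay 637 bases inside the last exon and scored -0.10 bits, against 7.53 bits for the canonical site. SNRPB2, which encodes the U2 snRNP protein U2-B'', had an A5SS of 100 bases in its 5' untranslated region, where the longer, canonical site scored 6.24 bits and the shorter 8.10 bits. PUF60, which helps U2AF at the 3'SS, had an A3SS that adds or removes CAG.

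The tri-snRNP proteins were the group in which leaving out a listed exon alone most often gave a premature stop. This held for 86 of 128 coding exons (67.2%), against 50.4% over all genes. Some of these exons were listed only in junctions that leave out several exons. Of the group's 173 listed junctions with a computed effect, 98 (56.6%) gave a premature stop, against 47.1% over all genes. Only 32 of the group's 130 exons (24.6%) had a length that is a multiple of 3, against 38.8% over all genes. This is not a separate result from the premature stops, since only such a length can keep the frame. Left out alone, 14 of 17 exons gave a premature stop in EFTUD2, the U5 GTPase, 7 of 7 in SART1 and 6 of 7 in SNRNP40. In SNRNP200, the helicase that unwinds U4 from U6, it was 10 of 14. Of these, exons 8 and 42 of SNRNP200 were listed only together with exons 9 and 43, in junctions that keep the frame. PRPF8, the scaffold at the catalytic center, went the other way, with the frame kept for 5 of 8 exons. The 30-base choice of EFTUD2 removes 10 residues. Its upstream, canonical AG scored 11.46 bits against 3.80 bits for the downstream AG. In USP39, use of the AG 20 bases upstream gives a premature stop with 411 residues lost, and the 2 sites scored 10.90 and 12.38 bits. PRPF4 can gain 1 residue through its CAG choice, in which the upstream AG scored 2.18 bits and the canonical AG 6.09 bits. PRPF38B had an added 53-base exon in intron 1 that gives a premature stop.

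The PRPF19 complex and its partners had 114 events in 11 genes, and 60 of 74 exons (81.1%) stood in a single event. The share over all genes was lower, with 40268 of the 67154 distinct exons in a single event. AQR, an RNA helicase that binds near the branch point, had the most skipped exons with 16 of 33 internal exons listed. PPIL2, a U-box protein of the cyclophilin family, had 28 events of 4 types, among them a 4-base A3SS in its last exon that extends the protein by 34 residues. PLRG1, a WD-repeat partner of PRPF19 and CDC5L, had a 27-base A5SS in 2 events that removes 9 residues. ISY1 had 12 events and shares a listed exon with a read-through symbol. BUD31 was the only member in which leaving out a listed exon left no stop codon (exon 5).

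The 4 genes of the later steps and exon junction had the lowest median share of internal exons listed, 31.0%. They had the highest share of exons with a length that is a multiple of 3, 16 of 19 (84.2%), against 38.8% over all genes. SRRM1 gave 6 of the 19 exons and SRRM2 gave 7. Such a length is needed to keep the frame. Leaving out a listed exon alone kept the frame for 14 of 18 coding exons (77.8%), against 37.3% over all genes. Over the group's listed junctions it was 14 of 20 (70.0%), against 38.0%. All 4 listed exons of SLU7, a factor for the second catalytic step, kept the frame. SRRM1, a coactivator with serine and arginine repeats, had the added 42-base exon printed above, which adds 14 residues, and a 6-base A5SS that removes 2. SRRM2 had the longest exon of the list, exon 11 with 6701 bases; leaving it out gives a premature stop with 2379 of 2752 residues lost. CWC22, which brings EIF4A3 to the spliceosome, had 2 events.

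**Figure D3:**
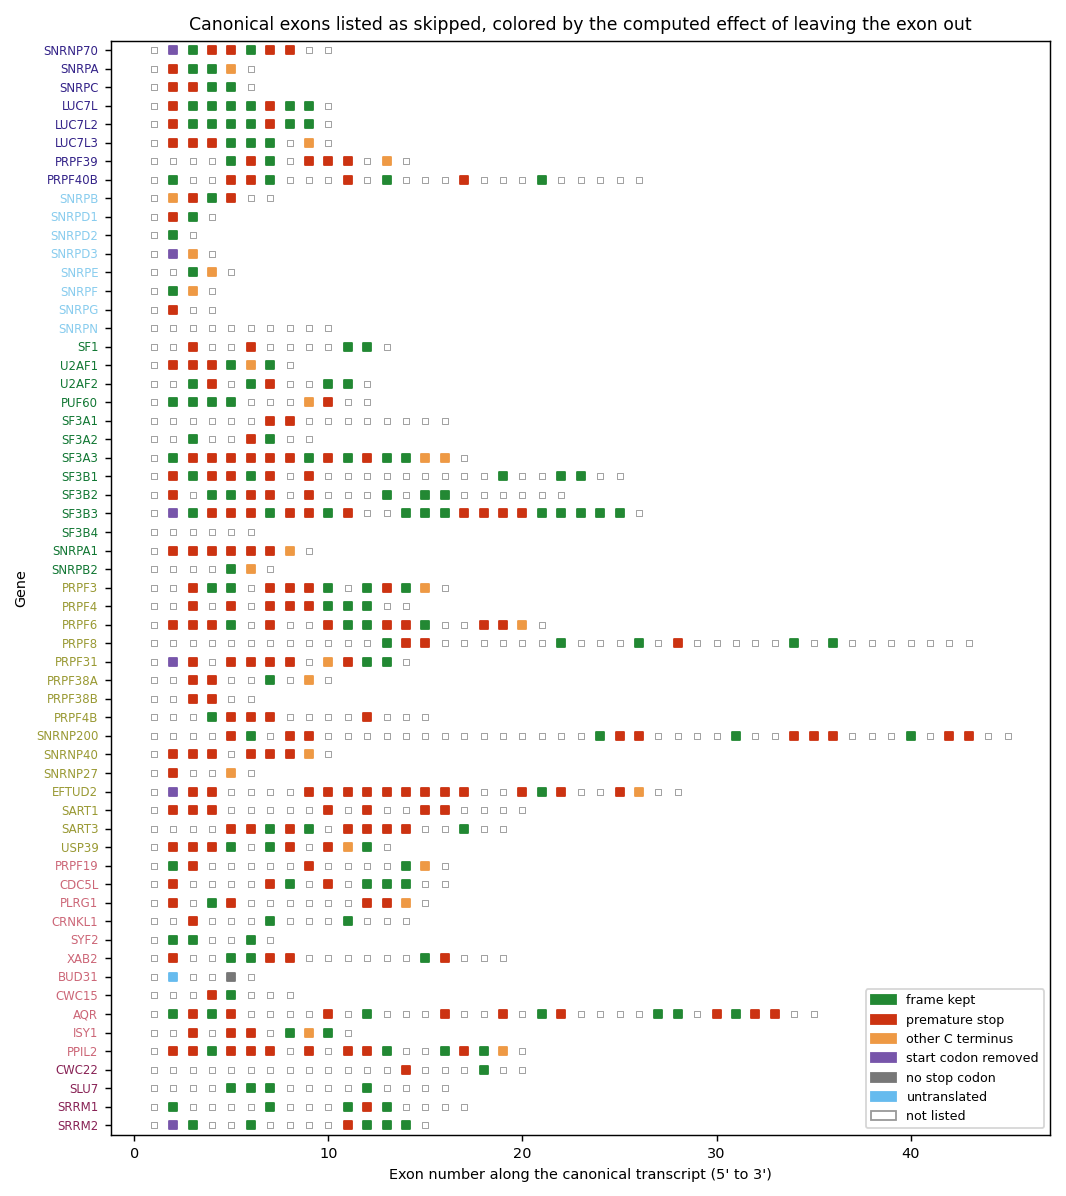
Canonical exons of each gene (horizontal axis, exon number from the 5' end), with unlisted exons in white. Exons listed as skipped are colored by the computed effect of leaving that exon out alone. Premature stops (red) account for 195 of 375 coding exons and kept frames (green) for 148; "other C terminus" means a changed frame or stop without a premature stop.

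Taking the groups as a whole, leaving out a listed coding exon alone gave a premature stop in 195 of 375 exons (52.0%, 95% Wilson interval 46.9% to 57.0%), against 50.4% over all genes. The frame was kept in 148 (39.5%, 34.7% to 44.5%), against 37.3%. Junctions as listed, many of which leave out several exons, gave another order for premature stops. Of 512 with a computed effect, 229 (44.7%) gave a premature stop, against 47.1% over all genes, and 218 (42.6%) kept the frame, against 38.0%. The intervals cover counting error over exons only, and exons of a gene are not independent. The start codon was removed in 6 exons (1.6%), against 3.7% over all genes. Each was exon 2 of its gene (EFTUD2, PRPF31, SF3B3, SNRNP70, SNRPD3 and SRRM2). The listed exons had a median length of 110 bases, against 114, and 157 of 391 lengths were multiples of 3 (40.2%, 35.4% to 45.1%), against 38.8%. The shortest were exon 2 of SNRPG (23 bases), exon 6 of PRPF40B (26 bases), and exon 7 of PRPF38A and the shorter exon 4 of PLRG1 (27 bases each). The longest were exon 11 of SRRM2 (6701 bases), exon 3 of SF3B3 (327 bases) and exon 7 of PRPF3 (307 bases). The effect is a reading of the annotation and not a measured protein.

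The junction that joins the neighbors of a skipped exon was in GENCODE 44 for 53 of the 391 exons (13.6%, 10.5% to 17.3%) against 25.9% over all genes. Counted as distinct junctions, 50 of 533 were annotated (9.4%, 7.2% to 12.2%), against 19.1%. The annotation given to rMATS for these tables is not given in the sources used here, so a junction outside GENCODE 44 may or may not have been in it. Of 513 junctions between canonical exons, 295 (57.5%) left out 1 exon, 114 (22.2%) left out 2 and 104 (20.3%) left out 3 or more, against 57.7%, 21.2% and 21.1% over all genes. The longest left out 12 exons, exons 15 to 26 of EFTUD2 and exons 3 to 14 of PRPF3. In PRPF3, which holds the U4/U6 snRNP together, that junction would keep the frame and remove 566 of 683 residues. Junctions of SF3A3 left out up to 11 exons (exons 2 to 12, with 303 residues lost and the frame kept), and a junction of SNRPA1 left out exons 2 to 8. All 236 mutually exclusive events of these genes used exons that were also in the skipped-exon table, as did 98.3% of such events over all genes. Canonical exons were paired in 220 (93.2%, against 92.1% over all genes). For 185 (78.4%, against 76.2%), the 2 exons are joined by an annotated intron, so that transcripts holding both are known.

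Splice site scores compare a site with all annotated sites: the 5'SS score sums log2 ratios over 9 bases and the 3'SS score over 23. The mean 5'SS score of the listed exons was 7.88 bits (SD 2.28, n = 391 exons), against 7.77 (SD 2.82) over all genes. The mean 3'SS score was 9.44 bits (SD 3.24), against 9.10 (SD 3.47). These differences are small beside the spread between exons. The ends of the range are shown with the splice site dinucleotide in capitals. The highest 5'SS score, 12.65 bits, belonged to SNRNP200 exon 34, and AQR exon 2 and SF3B3 exon 21 followed at 12.55 with the same 9 bases. The lowest after the GC site of U2AF2 were PRPF40B exon 7 at 0.29 bits and PRPF4 exon 3 at 1.10.
SNRNP200 exon 34, 5'SS (chr2:96948933-96948941, minus strand): cagGTaagt
SF3B3 exon 21, 5'SS (chr16:70601437-70601445, plus strand): aagGTaagt
PRPF40B exon 7, 5'SS (chr12:50026905-50026913, plus strand): gagGTcctg
PRPF4 exon 3, 5'SS (chr9:116041409-116041417, plus strand): aagGTtgcc

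At the 3'SS, SLU7 exon 6 scored highest with 16.97 bits, then USP39 exon 10 with 16.78 and CWC22 exon 18 with 16.20. The lowest were AQR exon 30 with 0.38 bits, XAB2 exon 5 with 0.65 and LUC7L exon 2 with 0.69. In the strong sites shown T and C fill nearly all of the stretch before the AG, and in the weak ones A and G are mixed in.
SLU7 exon 6, 3'SS (chr5:159839524-159839546, minus strand): tcttttttttttttttaaAGgca
USP39 exon 10, 3'SS (chr2:85868079-85868101, plus strand): attttcttttctttctctAGgaa
AQR exon 30, 3'SS (chr15:35166198-35166220, minus strand): gggaatttgtctttggaaAGctt
XAB2 exon 5, 3'SS (chr19:7691154-7691176, minus strand): aggggtggctcggtccccAGctg

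**Figure D4:**
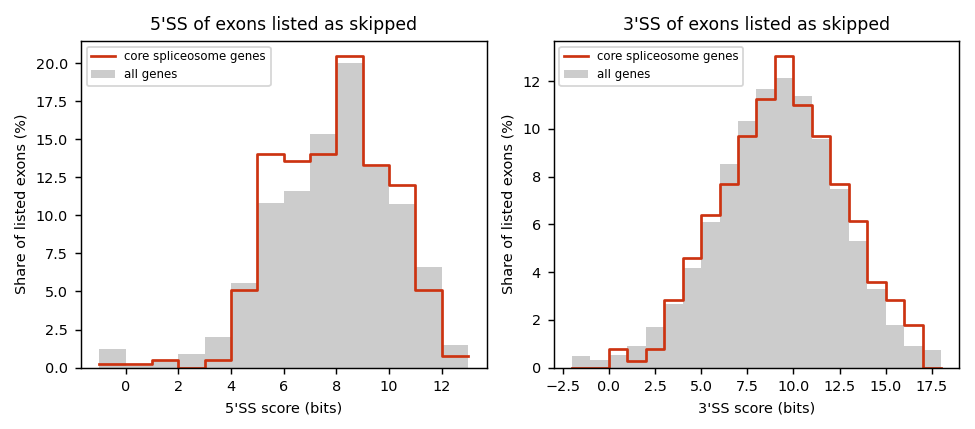
Distribution of 5'SS and 3'SS scores (horizontal axis, bits, in bins of 1 bit with outer bins taking all values beyond) of exons listed as skipped (vertical axis, percent of exons) in core spliceosome genes (red line) and in all genes (gray bars). The distributions overlap over most of their range, with means of 7.88 against 7.77 bits and 9.44 against 9.10 bits.

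Retained introns were listed in LUC7L3 (1505 bases), SF3B1 (1476), PPIL2 (1250), SF1 (432), USP39 (163) and SNRNP27 (86), a tri-snRNP protein. Their median of 841 bases was above the 283 bases of all 677 listed introns, but they are only 6. All 6 are annotated introns and none is an intron of the canonical transcript. In LUC7L3, PPIL2, SF1, SNRNP27 and USP39 the intron lies inside the last canonical exon, and in 4 of these, all but SF1, it lies in untranslated sequence.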

How the data were processed

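Polyadenylated RNA of 1 control and 1 amiloride-treated HEK293T library was sequenced by the authors as paired reads, and the submitters' processing notes name STAR 2.5.1 and hg19/GRCh37. The authors' deposited event tables came from rMATS, whose version and annotation for these tables are not given in the sources used here. The deposited tables hold event coordinates, gene symbols and effective lengths (other values, in bases), which were used. They also hold 30 per-library columns (read counts and inclusion fractions) that are numbered without a treatment and 15 comparison columns (p-values, false discovery rates, inclusion differences) that are the authors' own comparison; none was used, and depth is not reported. No expression value was used, so the cell type was not checked against markers.

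Member genes and their 6 groups were chosen with earlier results of these data known. Events were matched by gene symbol, and skipped exons counted once by chromosome, strand, start and end. Frame effects of an exon were computed by leaving out, or adding, that exon alone in the Ensembl canonical transcript of GENCODE 44 lifted to GRCh37. For a junction, all canonical exons that it passes over were left out. Splice site scores used 300873 annotated GT and 300290 AG sites, 3 exon and 6 intron bases at the 5'SS, 20 intron and 3 exon bases at the 3'SS, equal base frequencies and a pseudocount of 0.5. The code was checked on simulated data. Genes and exons named: every alternative-site and retained-intron event, every equal-length exclusive pair, every skipped exon outside the canonical transcript (1 is not reported here), the 5 genes with most skipped exons (ties kept) and those with none, and the 3 extremes of each score and of length; others were named for their role or count after their values were seen. Alternatives counted events, kept only AG/GT or coding exons, or changed the pseudocount, base frequencies or unit.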

Additional observations from a re-analysis of the deposited data

How the results depend on the processing

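Counting events gave 671 in place of 391 exons. The share of exons with an annotated skipping junction was 13.6% and fell to 6.4% with protein-coding transcripts only, 8.3% with events counted and 9.4% over distinct junctions, the last an alternative chosen after seeing the data; over all genes these ran from 13.4% to 25.9% and were the higher value under each of the 4 ways of counting. With base frequencies around the sites, mean scores were 6.40 bits at the 5'SS and 7.26 bits at the 3'SS, against 6.38 and 7.07 over all genes. The other alternatives moved exon count, length, multiples of 3 and mean scores by no more than their 95% interval or, for the count, 1.5 times. No paired analysis was possible because each treatment had 1 library and no test was run. Depth, and whether a gene's expression sets how many of its exons are listed, were not analysed here.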
